A study of Mus musculus with 9 samples.

Results

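Adenosine and extracellular ATP signaling was followed through 10 genes: the adenosine receptors *Adora2a*, *Adora2b* and *Adora3*, the ecto-enzymes *Entpd1* and *Nt5e*, the adenosine deaminase *Ada*, the ATP-gated channels *P2rx4* and *P2rx7*, and the nucleotide receptors *P2ry2* and *P2ry6*. They were chosen by name, with earlier results of these data known. All 10 were found among the 54059 genes of the expression table. RNA was sequenced from adherent peritoneal macrophages of C57BL/6 mice aged 8 weeks, collected 3 days after starch broth was injected into the peritoneum. The 9 libraries form 3 groups of 3: wild type (WT), M-Shp2-/- (genotype SHP2lyz2-/-), and wild-type cells given SHP099, an allosteric inhibitor of the phosphatase SHP2. According to the methods of the study, the cells of all 3 groups were stimulated *in vitro* with imiquimod (IMQ), a TLR7 agonist, and SHP099 was added before IMQ; the labels name SHP099 in the sample titles but give neither IMQ nor any dose. No group without IMQ was analysed here. In M-Shp2-/- mice the floxed *Shp2* gene is deleted by *Lyz2*-cre, which is active in myeloid cells, so cells of other lineages in the dish keep the gene. Nothing states that replicates came from separate animals, so p-values measure only the spread between these samples, which may be technical.

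Cells under stress or dying release ATP, which opens P2X channels and activates P2Y receptors on neighbouring macrophages. On the cell surface, *Entpd1* (CD39) cuts ATP and ADP down to AMP and *Nt5e* (CD73) turns AMP into adenosine, which *Ada* converts to inosine. The adenosine receptors *Adora2a* and *Adora2b* raise cAMP and are known to restrain inflammatory cytokines in macrophages, while *P2rx7* is known for driving the inflammasome.

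Values are FPKM, the reads of a gene scaled by its transcript length and by the depth of the library. The depth recovered from them was 39841812 to 50979545 reads per library. Of the 10 genes, 8 reached an FPKM of 1 on average across the libraries and entered the test; *Adora3* and *Nt5e* did not. *Ptpn11*, the gene of SHP2, had an FPKM of 45.8, 44.0 and 40.0 in WT, 18.6, 17.8 and 18.9 in M-Shp2-/-, and 43.0, 42.1 and 39.6 in SHP099. The M-Shp2-/- libraries were all below the other 6, and the WT and SHP099 libraries overlapped. On the log2(FPKM + 1) scale *Ptpn11* fell by 1.19 in M-Shp2-/- (SE 0.10, adjusted p = 0.0168 from limma), and the SHP099 difference was -0.05 (adjusted p = 0.729 from limma). The M-Shp2-/- call was lost without WT replicate 1 or 2 or M-Shp2-/- replicate 1 or 2 (adjusted p = 0.105 to 0.196 from limma, with log2 differences of -1.19 to -1.15). Bulk RNA cannot tell fewer cells of a type from less RNA per cell.

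The 8 macrophage markers had a summed FPKM of 10400, 13400 and 11200 in WT, 7600, 7470 and 8410 in M-Shp2-/-, and 11800, 13000 and 13700 in SHP099. Most of each sum was *Lyz2*, the gene whose locus carries the Cre. Without it the sums were 2980, 3190 and 3240 in WT, 2730, 2730 and 3010 in M-Shp2-/-, and 2430, 2730 and 3020 in SHP099, and the groups overlapped. Of the 8, 1 passed an adjusted p of 0.05 from limma with SHP099 and none in M-Shp2-/-, against 6.96% and 0.0873% of all genes tested. That marker, *Csf1r*, rose by 1.38 on the log2(FPKM + 1) scale with SHP099 (adjusted p = 0.0222 from limma). Its FPKM was 58.2, 67.8 and 111 in WT, 87.4, 71.8 and 176 in M-Shp2-/-, and 181, 211 and 206 in SHP099. Library 3 of M-Shp2-/- stood apart from the other libraries of its group, with a correlation of log2 values of 0.967 and 0.954 with them, against 0.992 between those libraries. The 8 fibroblast and mesothelial markers, led by *Col1a1*, summed to an FPKM of 588 in that library, against 135 and 51.7 in the other M-Shp2-/- libraries, 64.3, 304 and 40.0 in WT, and 362, 138 and 102 in SHP099. The 6 B cell markers, led by *Ighm*, summed to 178 in it, against 11.5 to 47.5 in the other 8 libraries. WT library 2 also had a high fibroblast and mesothelial sum for its group. None of the 8 fibroblast and mesothelial markers was at 0 in all libraries, and their part in the results was not tested.

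Most of the other marker lists were low. The summed FPKM was 1.82 to 8.33 for 7 T cell markers and 4.18 to 10.5 for 5 markers of resident peritoneal macrophages. The 7 neutrophil markers summed to 38.9 to 102, most of it *S100a8* (34.5 to 95.4). *Camp* was at 2.92 to 4.95, and *Ly6g*, *Cxcr2* and *Mpo* were at or near 0. The 4 NK cell markers reached at most 0.899 in any library. The 7 mast cell markers, led by *Kit*, summed to 5.10 to 6.21 in WT, 1.73 to 3.32 in M-Shp2-/- and 0.678 to 1.01 in SHP099. The sums were also lower in SHP099 for 4 endothelial markers (1.35 to 1.84, against 4.39 to 5.51 in WT), 5 dendritic cell markers (1.03 to 1.5, against 3.75 to 6.25) and 5 eosinophil markers (0.0186 to 0.0368, against 0.383 to 0.930). More of the difference came from *Kdr*, *Ccr7* and *Siglecf*, the most abundant gene of each list, than from the rest of the list. Other markers of these lists were lower too. Without overlap, the SHP099 mean was 21.7% of the WT mean for endothelial *Cdh5* and 30.4% for dendritic *Flt3*. With overlap, it was 68.9% for *Pecam1*, 75.2% for *Zbtb46* and 3.73% for eosinophil *Ccr3*, while dendritic *Xcr1* was at 106%. Whether whole lists shifted was not tested. *Ccr7* alone was at 5.04, 2.83 and 2.97 in WT and 0.714, 0.305 and 0.727 in SHP099. These sums are small beside the macrophage sums, and their part in the results was not tested.

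In WT, the mean FPKM ran from *Adora2a* (209 ± 74.8, SD, n = 3) and *P2rx4* (200 ± 17.4) through *P2ry2* (90.4 ± 9.21), *Adora2b* (51.3 ± 9.25), *Entpd1* (32.1 ± 2.84), *P2rx7* (10.2 ± 1.07) and *P2ry6* (6.88 ± 4.79) to *Ada* (1.35 ± 0.436). *Adora2a* and *P2rx4*, and *P2rx7* and *P2ry6*, do not differ beyond their spread. In M-Shp2-/- the mean FPKM of *Adora2b* (24.7 ± 3.38) lay beside that of *Entpd1* (27.7 ± 9.15), and in SHP099 it (10.6 ± 2.09) lay beside *P2rx7* (11.5 ± 0.977) and below *Entpd1* (17.1 ± 2.18). FPKM here divides by the mean length of the annotated transcripts of a gene. With the longest transcript in its place, the WT means were 83.9 for *Adora2a*, 74.8 for *P2rx4*, 56.6 for *P2ry2*, 51.3 for *Adora2b*, 8.05 for *Entpd1*, 3.83 for *P2ry6* and 3.80 for *P2rx7*. On that length *Adora2b* was above *Entpd1* and *P2rx7* in the other groups as well, with 24.7, 6.96 and 6.11 in M-Shp2-/- and 10.6, 4.30 and 4.27 in SHP099, so the order of these genes depends on the length used.

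**Figure D1:**
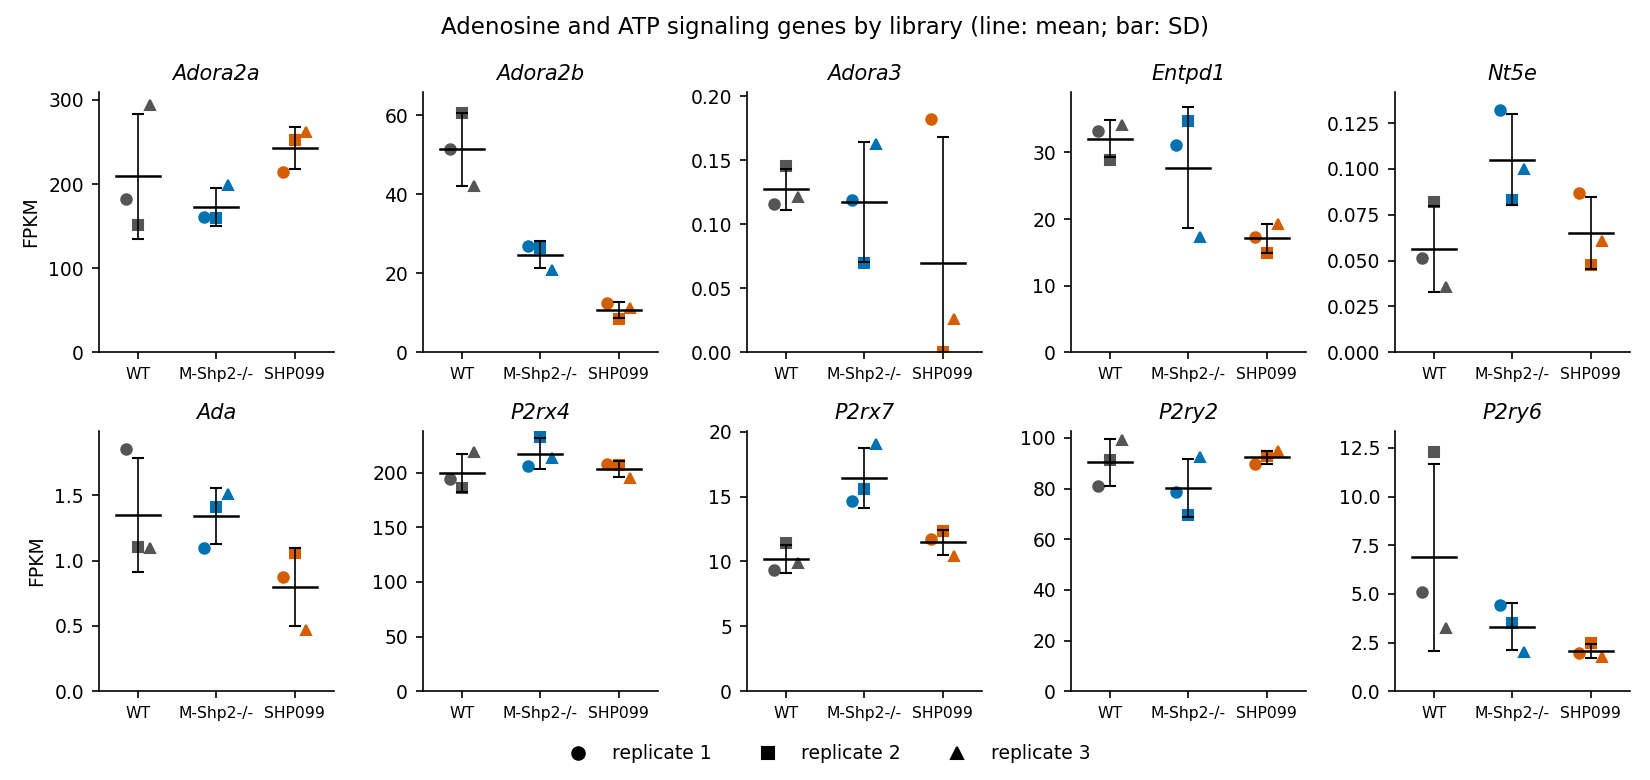
FPKM of the 10 genes in each of the 9 libraries, with the mean (line) and SD (bar) of 3 libraries a group and a vertical axis of its own for each gene. *Adora2b* runs from 42.0 to 60.5 in WT, 20.8 to 26.8 in M-Shp2-/- and 8.30 to 12.4 in SHP099, and *Entpd1* in M-Shp2-/- replicate 3 lies at 17.4, among the SHP099 libraries.

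The adenosine receptors showed different patterns. *Adora2b*, which has a lower affinity for adenosine than *Adora2a*, had an FPKM of 51.5, 60.5 and 42.0 in WT, 26.8, 26.5 and 20.8 in M-Shp2-/-, and 12.4, 8.30 and 11.2 in SHP099. The groups formed 3 ranges that did not overlap, with WT highest and SHP099 lowest, and 610 to 5690 reads lay behind each value. *Adora2b* fell by 2.17 on the log2(FPKM + 1) scale with SHP099, or 4.51-fold (SE 0.18, 95% interval -2.60 to -1.75, adjusted p = 0.00404 from limma). With any 1 library left out it stayed between -2.31 and -2.02 and below an adjusted p of 0.05 from limma, at most 0.0453 over the 16 alternatives, but it was past 0.005 in the absence of WT replicate 3 alone. The difference between M-Shp2-/- and WT was -1.02 (SE 0.17, 95% interval -1.42 to -0.63), with 3 of 3 libraries below WT, and did not pass (adjusted p = 0.229 from limma). With median-of-ratios scaling it was -1.20 and passed 0.05 (adjusted p = 0.0329 from limma; the range over its alternatives was 0.0329 to 0.787).

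*Adora2b* (ENSMUSG00000018500) lies on the plus strand of chr11:62248984-62266453 (GRCm38) and has 1 annotated transcript of 1845 bases. Its nearest protein-coding neighbours were *Specc1*, 26.0 kb away, and *Zswim7*, 0.771 kb away. *Zswim7* had log2 differences of 0.04 in M-Shp2-/- and 0.47 with SHP099 (adjusted p = 0.0566 from limma), and *Specc1* 0.27 and -0.10. The promoters of *Adora2b* and *Entpd1* are shown because both genes passed the test with SHP099. They cover 250 bases before to 50 after the start site, from RefSeq on GRCm38.p6, at chr11:62248734-62249033 and chr19:40612116-40612415, both on the plus strand. Capitals mark GC boxes (GGGCGG) and CCAAT boxes (CCAAT) on either strand.
*Adora2b* promoter: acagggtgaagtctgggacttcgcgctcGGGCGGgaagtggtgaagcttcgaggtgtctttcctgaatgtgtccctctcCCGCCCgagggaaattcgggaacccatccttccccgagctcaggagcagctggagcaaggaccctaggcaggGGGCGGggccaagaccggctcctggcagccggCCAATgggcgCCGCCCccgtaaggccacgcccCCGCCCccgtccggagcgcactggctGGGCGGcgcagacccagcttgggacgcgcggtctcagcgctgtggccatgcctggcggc
*Entpd1* promoter: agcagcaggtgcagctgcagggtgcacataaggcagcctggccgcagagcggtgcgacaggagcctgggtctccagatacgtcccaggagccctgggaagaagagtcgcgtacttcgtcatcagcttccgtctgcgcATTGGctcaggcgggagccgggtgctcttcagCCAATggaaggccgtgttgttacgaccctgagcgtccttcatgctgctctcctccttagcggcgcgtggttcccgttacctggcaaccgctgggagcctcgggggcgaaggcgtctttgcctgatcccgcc

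Both strands were searched for 6 motifs: the κB motif, AP-1 (TGANTCA), CRE (TGACGTCA), the core of the hypoxia response element (ACGTG), the GC box and the CCAAT box. The *Adora2b* promoter held 6 GC boxes and 1 CCAAT box, the *Entpd1* promoter held 2 CCAAT boxes, and neither held the other motifs. A GC box was in 35.7% and a CCAAT box in 37.4% of 32851 promoters of 300 bases, against 4.5% for κB, 7.8% for AP-1, 1.8% for CRE and 19.6% for the hypoxia core. Of the 10 genes, 8 had a promoter in the RefSeq table. A second *Entpd1* promoter held 1 CCAAT box. Of the other members, *P2ry2* had GC boxes and the hypoxia core, *P2rx7* GC boxes and AP-1, *Adora3* AP-1, *Nt5e* and *P2rx4* GC boxes, and *Ada* GC boxes and a CCAAT box. A match describes the letters in this window and nothing more.

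*Adora2a*, a receptor that inflammatory stimuli are known to induce in macrophages, had an FPKM of 182, 152 and 294 in WT, 160, 160 and 199 in M-Shp2-/-, and 214, 252 and 262 in SHP099. WT library 3 was highest of the 9, WT spanned the other groups, and every M-Shp2-/- library was below every SHP099 library. The log2 differences from WT were -0.22 in M-Shp2-/- (SE 0.24, adjusted p = 0.661 from limma) and 0.27 in SHP099 (SE 0.23, adjusted p = 0.508 from limma), so neither passed. Without WT library 3, the M-Shp2-/- difference was 0.05 and the SHP099 difference was 0.54 and passed (adjusted p = 0.0439 from limma, against 0.0439 to 0.866 over its alternatives). The ratio of *Adora2b* to *Adora2a*, as the log2 of the FPKM ratio, was -1.82, -1.33 and -2.81 in WT, -2.58, -2.59 and -3.26 in M-Shp2-/-, and -4.12, -4.92 and -4.55 in SHP099. The SHP099 libraries were all below the other 6, and WT and M-Shp2-/- overlapped through WT library 3. *Adora3*, the third receptor of this family in the list, was at or below 0.182 in every library (0 to 14 reads) and was not tested; it shares 779 exonic bases with *Tmigd3* on the same strand.

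Of the ecto-enzymes, *Entpd1* (ENSMUSG00000048120) lies on the plus strand of chr19:40612366-40741602 and has 11 annotated transcripts. It had an FPKM of 33.3, 28.8 and 34.1 in WT, 31.2, 34.7 and 17.4 in M-Shp2-/-, and 17.3, 14.9 and 19.2 in SHP099. WT and SHP099 did not overlap, while M-Shp2-/- libraries 1 and 2 lay with WT and library 3 with SHP099. *Entpd1* fell by 0.87 with SHP099 (1.83-fold, SE 0.12, 95% interval -1.16 to -0.59, adjusted p = 0.0151 from limma). Over the alternatives the adjusted p from limma ran from 0.0126 to 0.0843 and passed 0.05 in 12 of 16; it did not pass without SHP099 replicate 1 (0.067) or 2 (0.0843), with all 9 libraries fitted together (0.0555) or with no filter on low values (0.0654). In M-Shp2-/- the difference was -0.26 (adjusted p = 0.631 from limma) and 0.04 without library 3.

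*Nt5e*, which makes adenosine from AMP, was near 0: its FPKM was 0.0357 to 0.132 over the 9 libraries, 4 to 15 reads, and it was not tested. *Ada* was low, with 1.85, 1.10 and 1.09 in WT, 1.10, 1.41 and 1.51 in M-Shp2-/-, and 0.876, 1.05 and 0.469 in SHP099. Only 23 to 92 reads lay behind these values, and the SHP099 libraries lay just below the other 6. The log2 differences were 0.00 in M-Shp2-/- (adjusted p = 0.992 from limma) and -0.38 in SHP099 (SE 0.21, adjusted p = 0.299 from limma), and neither passed.

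Among the P2X channels, *P2rx7*, which responds to high ATP, had an FPKM of 9.35, 11.4 and 9.88 in WT, 14.7, 15.6 and 19.1 in M-Shp2-/-, and 11.7, 12.3 and 10.4 in SHP099. All M-Shp2-/- libraries were above the other 6, and WT and SHP099 overlapped. The difference between M-Shp2-/- and WT was 0.63 (SE 0.14, 95% interval 0.30 to 0.97) and did not pass (adjusted p = 0.388 from limma), and with SHP099 it was 0.16 (adjusted p = 0.448 from limma). Exons of *P2rx7* hold the microRNA gene *Mir8115* over 119 bases, listed at 0 in every library.

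*P2rx4*, a channel found largely in lysosomes of macrophages, lies 16.1 kb from *P2rx7* on chromosome 5 and was among the highest of the 10 genes. Its FPKM was 186 to 219 in WT, 206 to 233 in M-Shp2-/- and 195 to 208 in SHP099, and the groups overlapped. The log2 differences were 0.12 (SE 0.10) in M-Shp2-/- and 0.03 (SE 0.09) in SHP099, with adjusted p = 0.573 and 0.853 from limma, and both turned below 0 with median-of-ratios scaling (-0.05 and -0.12). The log2 ratio of *P2rx7* to *P2rx4* was -4.47 to -4.02 in WT, -3.91 to -3.48 in M-Shp2-/- and -4.23 to -4.07 in SHP099, so the M-Shp2-/- libraries were above the other 6.

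Of the P2Y receptors, *P2ry6*, a receptor for UDP, had an FPKM of 5.09, 12.3 and 3.23 in WT, 4.42, 3.52 and 2.02 in M-Shp2-/-, and 1.98, 2.48 and 1.77 in SHP099. WT library 2 was far above the rest, and all SHP099 libraries were below all WT libraries. The SHP099 difference was -1.19 (SE 0.39, 95% interval -2.11 to -0.27, adjusted p = 0.109 from limma) and the M-Shp2-/- difference was -0.74 (SE 0.44, adjusted p = 0.515 from limma), so neither passed. Without WT library 3, the SHP099 difference was -1.56 and passed (adjusted p = 0.0381 from limma, against 0.0381 to 0.311 over its alternatives); with any 1 library left out it was between -1.56 and -0.73. Without WT library 2 the M-Shp2-/- difference was -0.27. *P2ry2*, a receptor for ATP and UTP that lies 21.9 kb away on chromosome 7, had 80.8 to 99.2 in WT, 69.4 to 92.4 in M-Shp2-/- and 89.5 to 94.7 in SHP099. Its groups overlapped, with log2 differences of -0.18 (SE 0.13) and 0.03 (SE 0.09), and adjusted p = 0.565 and 0.847 from limma.

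Counted over the genes tested, 0 of 8 passed an adjusted p of 0.05 from limma in M-Shp2-/- against WT, where 0.0873% of all 11450 genes tested passed and 1204 had an unadjusted p under 0.05. *Adora2b* was the member without overlap below WT and *P2rx7* the member above; over all genes the shares were 3.07% lower and 16.0% higher. With SHP099, *Adora2b* and *Entpd1*, 2 of 8, passed, both lower, against 6.96% of all genes (521 higher and 276 lower; with median-of-ratios scaling 172 higher and 339 lower). At an adjusted p of 0.005 and a log2 change of 1, *Adora2b* alone of the 8 passed with SHP099, against 0.166% of all genes. None of the 8 did in M-Shp2-/-, against 0.00873%. The members were chosen with earlier results of these data known, and the study had reported *Adora2b* as lower with SHP099 by quantitative PCR. Setting the members beside the shares over all genes is therefore no independent test of them. Without WT replicate 3, 4 of 8 passed 0.05 with SHP099, *Adora2a* and *P2ry6* in addition, against 11.1% of all genes, and without SHP099 replicate 1 or 2 *Adora2b* alone did, against 0.786% and 0.41%. The share of all genes that passed with SHP099 thus depended on the libraries used. *Adora2b*, *Entpd1*, *Ada* and *P2ry6* lay below WT without overlap with SHP099 (6.77% of all genes) and no member above (27.9%). The median log2 difference of the 8 genes was -0.20 in M-Shp2-/- and -0.18 in SHP099, against 0.15 and 0.13 over all genes. Median-of-ratios scaling moved the medians over all genes to -0.01. It also lowered each of the 8 in M-Shp2-/-, such as *P2ry2* from -0.18 to -0.35. The scaled median of the 8 was not computed. The comparisons share the WT libraries. With 3 libraries in each of the groups, the smallest p of an exact two-sided permutation test is 0.1.

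**Figure D2:**
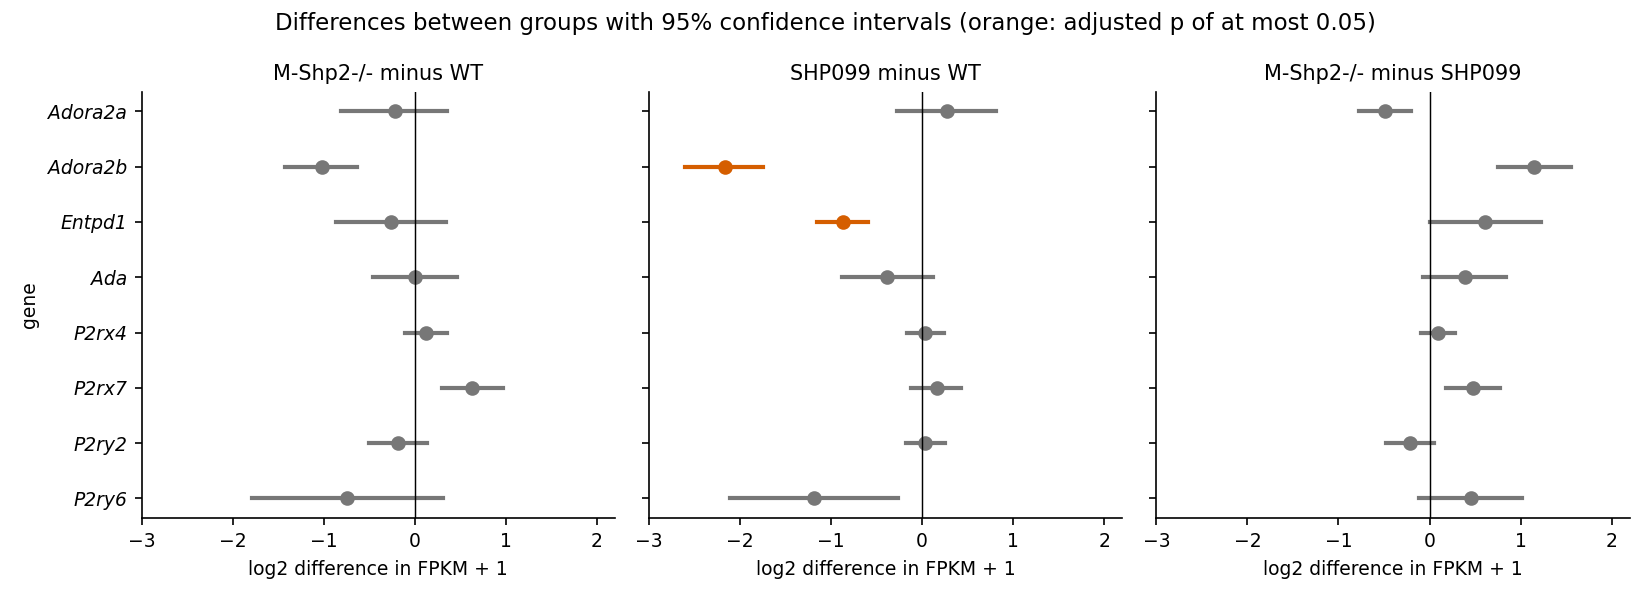
Log2 difference in FPKM + 1 for the 8 genes tested (points) with 95% confidence intervals (lines), 3 libraries a group, in the comparison named above each panel. Orange marks genes with a limma adjusted p up to 0.05, reached by *Adora2b* (-2.17) and *Entpd1* (-0.87) with SHP099.

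M-Shp2-/- and SHP099 libraries were also compared directly, which asks whether loss of the gene and inhibition of the protein differ. With all 6 libraries, 0 of 8 genes passed an adjusted p of 0.05 from limma, where 0.0699% of all genes did and 1437 had an unadjusted p under 0.05. *Adora2b* was 1.15 higher in M-Shp2-/- (SE 0.17, 95% interval 0.75 to 1.55, adjusted p = 0.106 from limma) and *Adora2a* 0.49 lower on the same scale, with a 95% interval of the difference of -0.78 to -0.20 (adjusted p = 0.275 from limma). *Adora2b*, *P2rx7* and *Ada* were higher in M-Shp2-/- without overlap (7.90% of all genes) and *Adora2a* was lower (9.76%). Without M-Shp2-/- library 3, 6 of the 8 passed, but so did 19.9% of all genes (2277 of 11450). These were *Adora2b* (1.27), *Entpd1* (0.91), *P2ry6* (0.69), *P2rx7* (0.37), *P2ry2* (-0.32) and *Adora2a* (-0.59), all as log2 differences. For *Adora2b* the adjusted p from limma over all alternatives ran from 0.00511 to 0.555.

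**Figure D3:**
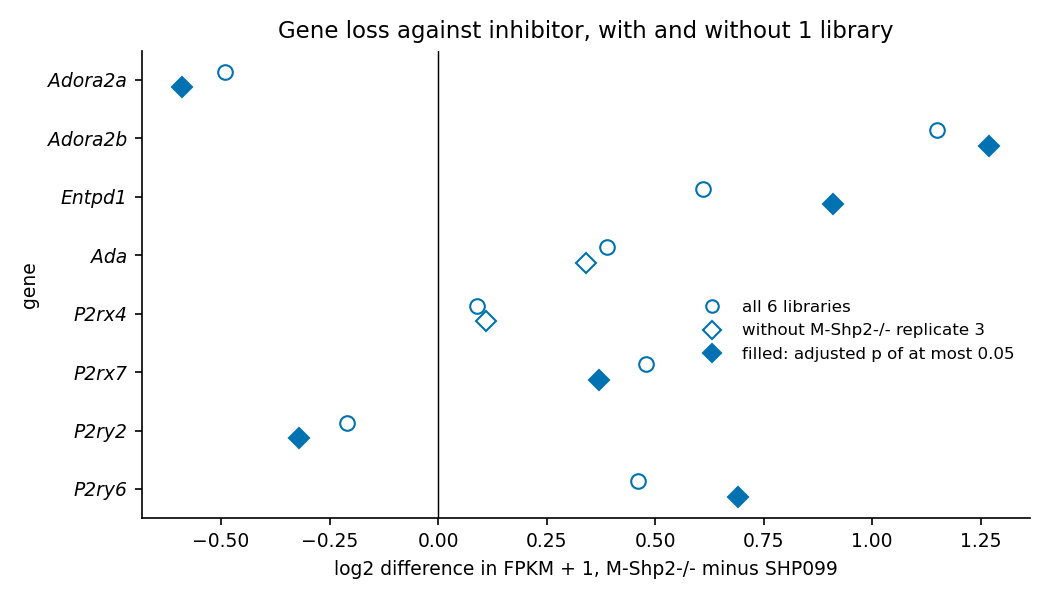
Log2 difference in FPKM + 1 between M-Shp2-/- and SHP099 for the 8 genes tested, with all 6 libraries (circles) and without M-Shp2-/- replicate 3 (diamonds). Filled symbols have a limma adjusted p up to 0.05; *Entpd1* moves from 0.61 to 0.91.

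Other genes of the pathway were read from lists set by function. Of 13 further nucleotide receptors, 2 were tested, and *P2ry14*, a receptor for UDP-glucose, had an FPKM of 7.40, 12.6 and 24.5 in WT, 2.62, 2.89 and 3.73 in M-Shp2-/-, and 2.18, 1.60 and 3.86 in SHP099. Every WT library was above the other 6, and the other groups overlapped. *P2ry14* fell by 2.06 with SHP099 (SE 0.41, adjusted p = 0.0351 from limma) and was at -1.82 in M-Shp2-/- (SE 0.38, adjusted p = 0.388 from limma).

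Of 17 genes of adenosine transport and intracellular purine enzymes, 14 were tested; 3 rose and 1 fell with SHP099, where 6.96% of all genes passed, and none passed in M-Shp2-/-, where 0.0873% did. *Ampd3*, an AMP deaminase, had an FPKM of 179, 174 and 193 in WT, 189, 182 and 291 in M-Shp2-/-, and 307, 338 and 336 in SHP099. WT and SHP099 did not overlap, and M-Shp2-/- library 3 lay between them. It rose by 0.84 with SHP099 (SE 0.08, adjusted p = 0.00701 from limma). The nucleotidases *Nt5c* and *Nt5c2* rose by 0.68 and 0.56 (adjusted p = 0.0216 and 0.0421 from limma). *Slc29a3*, a nucleoside transporter of lysosomes, had 37.4, 38.0 and 23.0 in WT, 53.5, 63.4 and 14.6 in M-Shp2-/-, and 18.2, 17.2 and 14.5 in SHP099, and fell by 0.91 with SHP099 (SE 0.20, adjusted p = 0.0433 from limma). Like *Entpd1*, it was at the SHP099 level in M-Shp2-/- library 3 and not in libraries 1 and 2.

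No gene passed among 3 tested of 10 further ecto-enzymes, where *Cd38*, an NAD-consuming enzyme, had the highest mean FPKM (199 ± 59.8 in WT, 139 ± 99.5 in M-Shp2-/- and 200 ± 39.9 in SHP099, SD, n = 3). None passed among 5 tested of 6 genes of ATP release either, led by the connexin *Gja1* (16.2 ± 8.27 in WT, 21 ± 24.2 in M-Shp2-/- and 22.8 ± 1.12 in SHP099), and 3 of the 5 lay above WT without overlap in each of the comparisons with WT, against 16.0% of all genes in M-Shp2-/- and 27.9% with SHP099. Of 27 G protein and cAMP genes, 23 were tested and 1 passed with SHP099, against 6.96% of all genes: *Plcb2*, a phospholipase C, fell by 0.87 (adjusted p = 0.0388 from limma), and its FPKM in M-Shp2-/- was 9.22, 10.2 and 3.42. Of 13 cAMP-responsive and adenosine-regulated transcripts, 9 were tested and 1 passed with SHP099, against the same 6.96%: the nuclear receptor *Nr4a3* fell by 1.51 (SE 0.30, adjusted p = 0.0342 from limma), from 4.43 ± 1.91 to 0.857 ± 0.407.

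All 10 genes of P2X7 and inflammasome output were tested. With SHP099, 3 fell and none rose, and in M-Shp2-/- 2 fell, against 6.96% and 0.0873% of all genes that passed. *Il18* had an FPKM of 22.2, 13.3 and 15.1 in WT, 13.2, 18.2 and 4.77 in M-Shp2-/-, and 3.82, 5.45 and 5.02 in SHP099. WT and SHP099 did not overlap, and M-Shp2-/- library 3 was at the SHP099 level. *Il18* fell by 1.61 with SHP099 (SE 0.21, adjusted p = 0.0133 from limma). The log2 differences of *Il1b* and *Il1a* were -2.48 and -1.82 in M-Shp2-/- (adjusted p = 0.00781 each from limma) and -4.25 and -3.09 with SHP099 (adjusted p = 0.00846 and 0.0135 from limma), whereas *P2rx7* itself passed in neither comparison. In M-Shp2-/- the calls of *Il1b* and *Il1a* were lost without WT replicate 1 or 2 or M-Shp2-/- replicate 1 or 2 (adjusted p = 0.0547 to 0.104 from limma), both with all 9 libraries in one fit (0.102 and 0.143), and that of *Il1b* with no filter on low values (0.0697).

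Of the other pathway genes called with SHP099, *Ampd3*, *Il1a* and *Il1b* passed 0.05 whichever single library was left out. *P2ry14*, *Slc29a3*, *Nt5c*, *Nt5c2*, *Plcb2*, *Nr4a3* and *Il18* no longer passed without any 1 of the SHP099 libraries (adjusted p = 0.0537 to 0.192 from limma). Without WT replicate 1 the calls of *Slc29a3*, *Nt5c*, *Nt5c2*, *Plcb2* and *Nr4a3* were lost (0.0558 to 0.106), without WT replicate 2 those of *P2ry14*, *Slc29a3*, *Nt5c*, *Nt5c2* and *Plcb2* (0.0512 to 0.0916), and without WT replicate 3 that of *Nr4a3* (0.0503). With no filter on low values all of the 10 but *Ampd3* were lost (0.0633 to 0.151). Median-of-ratios scaling lost *P2ry14* (0.0512) and *Nt5c* (0.0872), voom *P2ry14* (0.0546), the fit of all 9 libraries *Slc29a3* (0.264) and *Plcb2* (0.14), and the fit with no trend *Slc29a3* (0.0572). None of these log2 differences changed sign.

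**Figure D4:**
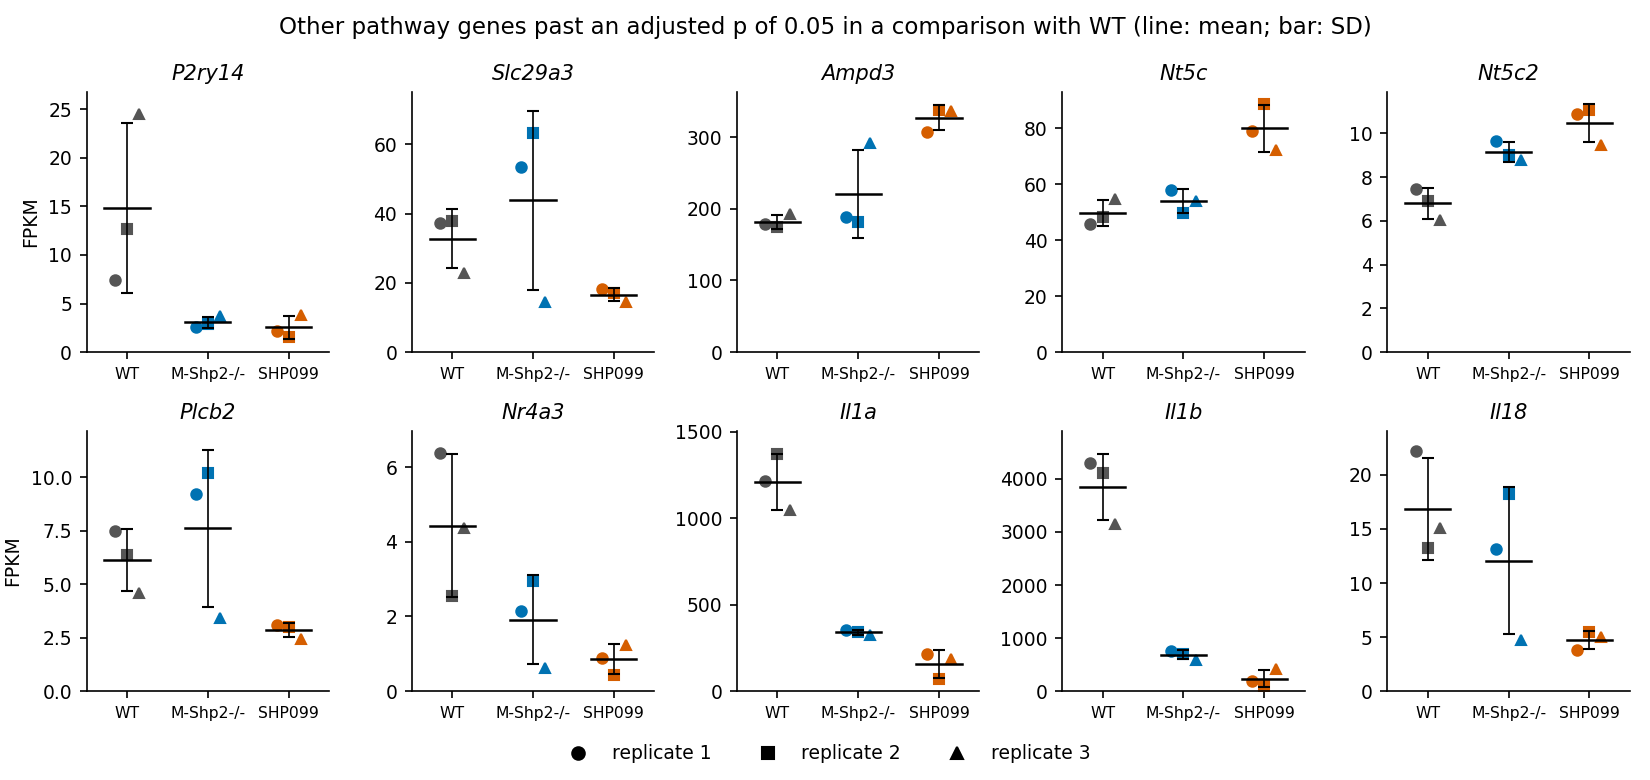
FPKM of the 10 other pathway genes past an adjusted p of 0.05 from limma in a comparison with WT, in each library, with the mean (line) and SD (bar) of 3 libraries a group. M-Shp2-/- replicate 3 lies at 14.6 for *Slc29a3*, 4.77 for *Il18* and 3.42 for *Plcb2*, apart from replicates 1 and 2.

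The genes whose profiles over the 9 libraries were most like those of the members that passed were found by the root mean square distance between centred log2(FPKM + 1) values. For *Adora2b* these were *Hbegf* (distance 0.11), *Ccr1* (0.22) and *Olr1* (0.23), with mean FPKM of 9.84, 17.0 and 226 in WT, 3.74, 10.5 and 139 in M-Shp2-/-, and 1.34, 4.30 and 61.0 in SHP099. For *Entpd1* they were *Vim* (0.10), *St6galnac4* (0.11) and *Parp8* (0.11), with 1310, 63.4 and 24.1 in WT, 1070, 52.0 and 19.0 in M-Shp2-/-, and 733, 33.2 and 12.3 in SHP099. The nearest genes of *Entpd1*, *Tctn3* (0.133 kb away) and *Cc2d2b* (7.15 kb), had mean FPKM of 3.13 and 0 in WT and 3.17 and 0.0119 in SHP099.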

How the data were processed

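The authors used CASAVA 1.8, HISAT2 2.0.4 for alignment of paired-end reads and HTSeq 0.9.1 for counting, per the submitters' processing notes and the study's methods, and deposited FPKM for 54059 genes in 9 libraries. The build, annotation and counting strand are not given in the sources used here. Symbols, positions and lengths came from GENCODE M21 (GRCm38), which holds 53706 of the 54059 genes. Gene spans deposited beside the FPKM were identical to this annotation for 91.8% of the 5235 genes matched. FPKM times mean transcript length gave whole reads (within 0.05) for 96.3% to 96.7% of values of up to 50 reads, against 10% by chance, and so the depth of each library. Without strand, overlapping genes cannot be told apart.

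The 11450 genes whose FPKM averaged 1 or more were tested on the log2(FPKM + 1) scale with limma 3.58.1 (lmFit, eBayes with a trend) in R 4.3.3, two-sided, on the 6 libraries of each comparison, with Benjamini-Hochberg adjustment over all genes tested. Fold changes are on this scale, which understates the change of low genes. Calls were made at adjusted p values up to 0.05, or up to 0.005 where log2 values also differed by 1 or more in size. The procedure was tested on simulated data. Alternatives were pseudocounts of 0.1 and 5, no filter or a mean FPKM of at least 5, median-of-ratios and equal-sum scaling, no trend, a single fit of all 9 libraries, a replicate block, voom on recovered reads, and each replicate left out in turn.

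The genes named are the 10 members, *Ptpn11*, the genes of the other pathway lists at an adjusted p of at most 0.05 or else the gene of the list with the highest mean FPKM, the 3 genes most alike to each member called against WT, neighbouring and overlapping genes, and the most abundant gene of a marker list. Members and lists were chosen with earlier results of these data known. Promoters were read from a RefSeq table (GRCm38.p6). Python 3.11.15, pandas 2.3.3, numpy 2.4.6 and matplotlib 3.10.9 were used for tables and plots.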

Additional observations from a re-analysis of the deposited data

Results flagged for a closer look

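*Adora2a* lay on opposite sides of the WT mean in M-Shp2-/- and SHP099 cells: all 3 M-Shp2-/- libraries were below the WT mean FPKM of 209 and all 3 SHP099 libraries above it. This rests on WT library 3, the highest of the 9: without it the M-Shp2-/- difference from WT was 0.05. The direct difference between M-Shp2-/- and SHP099 was -0.49 on the log2(FPKM + 1) scale and did not pass (adjusted p = 0.275 from limma, with a range of 0.0105 to 0.749 over its alternatives). *Ptpn11* differed between the same groups, with a log2 difference of -1.13 (SE 0.08, adjusted p = 0.0109 from limma, with a range of 0.00124 to 0.146 over its alternatives), and was lower in 3 of 3 M-Shp2-/- libraries.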

How the results depend on the processing

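In M-Shp2-/- against WT, the count of members at an adjusted p of 0.05 from limma was 0 and became 1 with median-of-ratios scaling. With SHP099 it was 2, became 1 with no filter on low values and 1 with all 9 libraries in one fit, and ran from 1 to 4 with a replicate left out. The count at 0.005 and a log2 change of 1 with SHP099 was 1 and became 0 with no filter, 0 with no trend in the prior variance, 0 with the replicate block and 0 with voom, and ran from 0 to 1 with a replicate left out. For M-Shp2-/- against SHP099 the count was 0 and ran from 0 to 6 with a replicate left out, 6 being the value without M-Shp2-/- replicate 3. The cause was not tested. The labels do not say whether replicate numbers pair the samples. Deviations of same-numbered libraries correlated at -0.43 to 0.49, against -0.63 to 0.54 for differently numbered ones, which does not settle it. The replicate block gave counts of 0, 2 and 0 at 0.05 in the 3 comparisons. With it the M-Shp2-/- calls of *Ptpn11* (adjusted p = 0.157 from limma) and *Il1a* (0.111) were lost. Over all genes, the SHP099 calls numbered 797, 511 with median-of-ratios scaling, 74 with no filter on low values, 284, 399 and 1273 without WT replicates 1, 2 and 3, and 90, 47 and 116 without SHP099 replicates 1, 2 and 3.

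Several small differences changed sign. In M-Shp2-/- against WT, *Ada* was 0.00 with a pseudocount of 5, -0.09 with median-of-ratios scaling, -0.07 without WT replicate 2, -0.07 without WT replicate 3, -0.02 without M-Shp2-/- replicate 2 and -0.05 without replicate 3. *P2rx4* and *Nt5c* were both -0.05 with median-of-ratios scaling. *Adora2a* was 0.05 without WT replicate 3, *Entpd1* 0.04 without M-Shp2-/- replicate 3, *Plcb2* -0.07 without M-Shp2-/- replicate 2, and *Slc29a3* -0.03, -0.06 and -0.18 without WT replicate 3 and M-Shp2-/- replicates 1 and 2. With SHP099, median-of-ratios scaling gave -0.12 for *P2rx4* and -0.11 for *P2ry2*, and they were -0.02 without WT replicate 2 and -0.04 without WT replicate 1. With a replicate left out, the ranges in M-Shp2-/- were -0.42 to 0.05 for *Adora2a*, -0.44 to 0.04 for *Entpd1*, -0.07 to 0.15 for *Ada*, -0.18 to 0.84 for *Slc29a3* and -0.07 to 0.61 for *Plcb2*, and with SHP099 -0.02 to 0.10 for *P2rx4* and -0.04 to 0.10 for *P2ry2*. The cause was not tested. Of 126 member values per comparison under alternatives, the direction and side of 0.05 held for 116 in M-Shp2-/-, 116 with SHP099 and 120 between these groups. At under 100 reads, *Ada* is limited by counting error.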
